A study of Mus musculus with 20 samples.

Results

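The transcripts of 10 genes that mark the cytoskeleton and identity of neurons were followed across 20 RNA sequencing libraries of mouse cortical neurons. They were chosen by name, with earlier results of these data known. All 10 were present in each of the 4 deposited tables, which together hold 14700 gene symbols. The genes encode the neurofilament subunits Nefl, Nefm, Nefh and Ina, the microtubule proteins Map2, Mapt, Tubb3 and Stmn2, the growth cone protein Gap43 and the nuclear RNA-binding protein Rbfox3 (NeuN). Neurons came from cortices at embryonic day 15 and were cultured for 7 days. Cultures were wild type (WT) or knocked out for the circular RNA ciRS-7 (KO), and the labels give the strain C57BL/6N-Cdr1asem1Nikr to every sample, the WT cultures included. They then spent 12 h in normoxia (N) in medium supplemented with 25 mM glucose and with pyruvate, or in a hypoxic chamber at 1% oxygen in the same base medium without those additions. The second condition is oxygen-glucose deprivation (OGD), a culture model of ischemia. Treatment and genotype together give 4 groups of 5 libraries, numbered 1 to 5: N_WT and OGD_WT for the WT cultures, N_KO and OGD_KO for the KO cultures. Within a genotype, a number stands for 1 culture and 1 batch label, shared by its normoxic and its deprived library. The same number in WT and KO is a different culture, often of another batch. Batch 3.2 occurs only in WT and batch 2 only in KO, so genotype and batch are partly confounded. The labels do not say that the cultures came from separate animals, so p-values measure the spread between these samples, which may be technical.

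Neurofilaments are the intermediate filaments of axons. They assemble from a light (Nefl), a medium (Nefm) and a heavy (Nefh) subunit together with internexin alpha (Ina), and their proteins are released into body fluids when axons are injured. Microtubules are built from tubulins such as Tubb3, the neuron-specific beta tubulin. They are bound in dendrites mainly by Map2 and in axons mainly by tau (Mapt), while Stmn2 binds free tubulin in growing axons and Gap43 lies at the growth cone membrane.

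The promoters of members that fell and of members that were not called under OGD are shown together, so that the sequence upstream of each can be read beside its values. RefSeq (GRCm38.p6) gave a promoter of 300 bases, from 250 before to 50 after the gene start, for 4 of the 10 members. They lie at chr19:47014431-47014730 on the plus strand (Ina), chr8:123411303-123411602 on the plus strand (Tubb3), chr1:66175079-66175378 on the plus strand (Map2) and chr11:118760992-118761291 on the minus strand (Rbfox3). The Rbfox3 window is at an internal start, 150.3 kb inside the gene as GENCODE annotates it, whereas the other 3 windows hold the GENCODE start. Capitals mark GGGCGG, the core of the GC box, and its reverse complement CCGCCC.

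Ina: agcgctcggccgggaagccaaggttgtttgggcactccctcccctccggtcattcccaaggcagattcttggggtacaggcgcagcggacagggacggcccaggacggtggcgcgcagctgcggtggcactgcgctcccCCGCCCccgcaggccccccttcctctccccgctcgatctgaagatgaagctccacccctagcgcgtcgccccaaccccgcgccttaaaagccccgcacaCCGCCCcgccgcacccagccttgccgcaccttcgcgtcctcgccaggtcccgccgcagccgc
Tubb3: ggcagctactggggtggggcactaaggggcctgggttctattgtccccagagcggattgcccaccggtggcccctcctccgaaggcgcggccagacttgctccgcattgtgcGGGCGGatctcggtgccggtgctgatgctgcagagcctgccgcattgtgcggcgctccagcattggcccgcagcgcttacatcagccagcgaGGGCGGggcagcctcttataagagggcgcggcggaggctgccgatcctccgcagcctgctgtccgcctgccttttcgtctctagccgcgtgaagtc
Map2: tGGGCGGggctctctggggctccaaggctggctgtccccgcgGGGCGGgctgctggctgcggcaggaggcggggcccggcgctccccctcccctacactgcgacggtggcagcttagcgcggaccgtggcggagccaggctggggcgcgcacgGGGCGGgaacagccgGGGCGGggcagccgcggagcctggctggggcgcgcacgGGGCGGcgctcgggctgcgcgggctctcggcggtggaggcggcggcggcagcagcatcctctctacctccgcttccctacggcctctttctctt
Rbfox3: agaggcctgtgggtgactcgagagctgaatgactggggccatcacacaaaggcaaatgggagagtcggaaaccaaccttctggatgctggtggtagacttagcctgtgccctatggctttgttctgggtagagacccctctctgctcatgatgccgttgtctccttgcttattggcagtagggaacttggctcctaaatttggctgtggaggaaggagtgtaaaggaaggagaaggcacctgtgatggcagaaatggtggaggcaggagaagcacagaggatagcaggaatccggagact

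The GC box core occurred 2 times in the Ina window, 2 times in the Tubb3 window and 5 times in the Map2 window, and these letters were not in the Rbfox3 window. It occurred on either strand in 35.7% of all 32851 RefSeq promoters of this length. The GC content was 71.7% for Ina, 67.3% for Tubb3 and 77.7% for Map2, against 53.0% for the internal Rbfox3 window and a median of 52.7% over all promoters. Of the 2 forms of the core of the hypoxia response element, ACGTG was in none of the 4 windows on either strand and in 19.6% of all promoters, and the form GCGTG occurred 1 time in the Tubb3 window, in none of the other 3, and in 32.4% of all promoters. CCAAT occurred 1 time each in the Tubb3 and Rbfox3 windows and in 37.4% of all promoters. TATAAA (in 13.6% of all promoters), TGACG (20.8%) and TGANTCA (7.8%) were in none of the 4 windows. These are matches of letters on both strands, not measured binding sites.

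In the GENCODE mouse release 21 annotation of GRCm38, Nefl lies on chromosome 14 from 68083863 to 68089095 on the plus strand. The gene Nefm spans 68082590 to 68124846 of the same chromosome on the minus strand, because 1 of its 2 transcripts (Nefm-202) runs across Nefl. Nefl and Nefm share 1108 exonic bases on opposite strands in this annotation. Ina (chromosome 19, 47014698 to 47025327, plus strand) shares 456 exonic bases with Nt5c2 on the minus strand, and Map2 shares 124 with the antisense gene Gm10558. The library kit keeps strand, but how reads were counted is not given in the sources used here, so values of Nefl, Nefm, Ina and Map2 are uncertain to the extent that reads from the opposite strand were counted. Nefh lies on chromosome 11 from 4938754 to 4948064 (minus strand), Map2 on chromosome 1 from 66175273 to 66442583 (plus), Mapt on chromosome 11 from 104231390 to 104332090 (plus) and Tubb3 on chromosome 8 from 123411424 to 123422015 (plus). Stmn2 lies on chromosome 3 from 8509360 to 8561606 (plus), Gap43 on chromosome 16 from 42248442 to 42340651 (minus) and Rbfox3 on chromosome 11 from 118489762 to 118911597 (minus). All 10 are protein-coding genes, and the values are sums over whole genes with no split by exon or transcript.

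The libraries held 7071603 to 16657766 recovered reads of genes in the tables. Cdr1as, the host of ciRS-7, fell by 6.32 on the log2 scale in N_KO against N_WT and by 6.26 in OGD_KO against OGD_WT, with 2 to 16 reads in each KO library against 545 to 1912 in each WT library. In every group, libraries 1 and 3 lay close to the group mean. The SD of their deviation from it over 10987 genes was 0.1 to 0.158 log2 units against 0.275 to 0.426 for libraries 2, 4 and 5, and they lay between the other libraries for 83.6% to 97.0% of genes against 37.2% to 44.2%. The squared difference between libraries 1 and 3 was 1.39 to 1.96 times the sampling noise, against 5.17 to 21.9 times for all other pairs. Results are therefore given also with libraries 2, 4 and 5 only and with libraries 1 and 3 averaged into 1. The mitochondrial ribosomal RNA mt-Rnr2 took 10.1% to 16.5% of the reads in normoxia and 13.8% to 32.0% under OGD, most in OGD_KO library 5. The median share of Malat1 was 1.19% in N_WT, 2.16% in OGD_WT, 1.18% in N_KO and 2.03% in OGD_KO. Of 13 genes listed as signs of RNA quality, 8 were higher under OGD in each genotype at a limma adjusted p under 0.05, and 0 lower. Of all genes, 21.6% in WT and 21.0% in KO were higher. When libraries were scaled to their total reads instead of the deposited scale, the median of all genes shifted from -0.03 to -0.30 on the log2 scale in WT and from 0.00 to -0.28 in KO. The split of all calls then moved from 3069 higher and 3244 lower genes to 1625 and 5744 in WT, and from 3021 and 2863 to 1479 and 5289 in KO.

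Under OGD the neuronal cytoskeleton transcripts were lower rather than higher. In WT cultures 6 of the 10 fell (Nefh, Gap43, Stmn2, Tubb3, Mapt and Ina) and none rose, at a limma adjusted p under 0.05 over all 14235 genes of the table. In KO cultures 5 of the 10 fell (Nefh, Gap43, Nefl, Tubb3 and Ina) and none rose among 14375 genes. Of all genes tested, 44.3% were called in WT and 22.8% were called lower, and in KO 40.9% were called and 19.9% were called lower. The shares called higher were 21.6% in WT and 21.0% in KO. The median change of the 10 genes was -0.46 on the log2 scale in WT and -0.53 in KO, beside medians over all genes of -0.03 and 0.00. In bulk RNA, fewer neurons and less of these transcripts per neuron cannot be told apart.

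**Figure D1:**
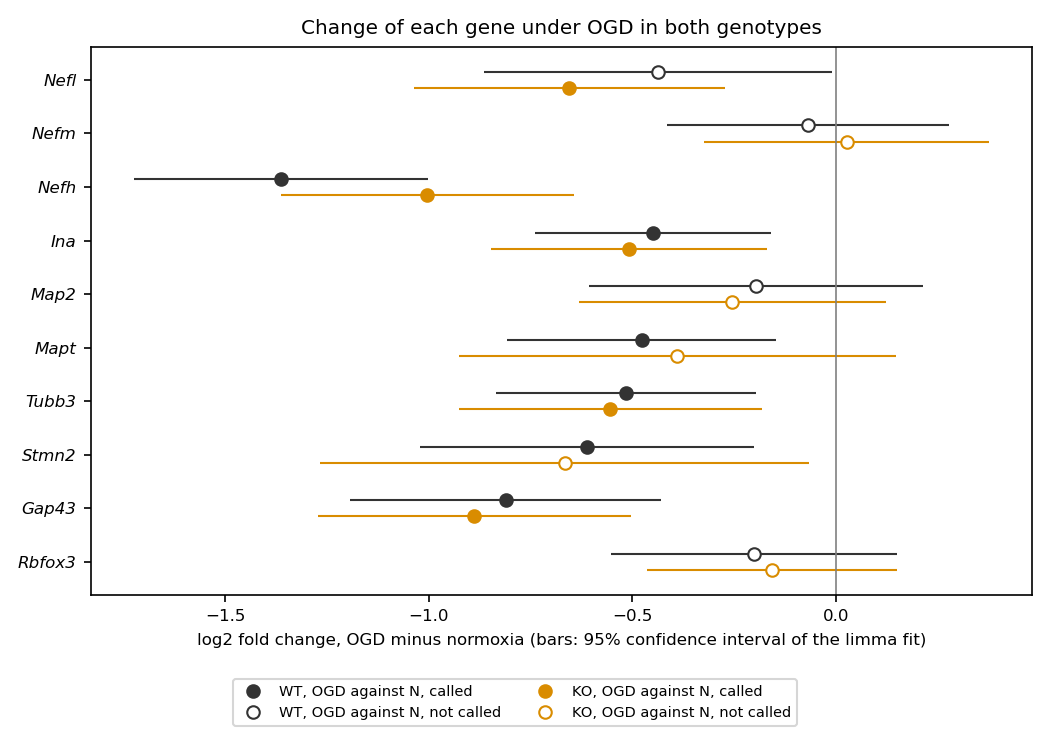
The horizontal axis gives the log2 fold change of OGD against normoxia for each gene, with the 95% confidence interval of the limma fit on 5 against 5 libraries; filled points were called at an adjusted p under 0.05. Nefh lies farthest to the left in both genotypes, with falls by 1.36 in WT and by 1.00 in KO, and the intervals of Nefm, Map2 and Rbfox3 cross 0 in both.

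The counts depended on which libraries entered. With libraries 1 and 3 averaged, 3 genes were called in WT (Nefh, Stmn2 and Gap43) and 3 in KO (Nefh, Nefl and Gap43), and with libraries 2, 4 and 5 only, Nefh was called in WT, and Nefh and Nefl in KO. With only the cultures of batches 3.1, 3.2 and 3.3, 3 genes were called in WT and 2 in KO. On the scale of total reads, 9 were called in WT and 8 in KO, all lower.

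The heavy neurofilament subunit Nefh, the last of the triplet to appear as axons mature, had the largest change of the 10. In N_WT libraries 1 to 5 it stood at 2.18, 2.08, 2.38, 2.30 and 2.21 log2 CPM, and in OGD_WT at 0.98, 0.54, 0.65, 1.14 and 1.03. Every OGD_WT library was below every N_WT library. Lower OGD groups with no overlap held for 13.1% of all genes in WT. In N_KO the values were 2.02, 1.99, 2.31, 2.69 and 2.37, and in OGD_KO 1.52, 1.29, 1.26, 1.21 and 1.08. Again no OGD library reached the lowest normoxia library, as for 12.4% of all genes in KO. Nefh fell by 1.36 ± 0.17 (SE) on the log2 scale in WT (limma adjusted p = 2.87e-06) and by 1.00 ± 0.17 in KO (adjusted p = 0.000161). In percent, Nefh fell by 61.1% and by 50.1% on the scale of log2(CPM + offset), which understates changes of low genes. Nefh was also the scarcest of the 10, with 32 to 59 reads per N_WT library, 11 to 24 per OGD_WT library, 38 to 77 per N_KO library and 10 to 33 per OGD_KO library. With libraries 2, 4 and 5 only, it fell by 1.30 in WT (adjusted p = 0.00154) and fell by 1.16 in KO (adjusted p = 0.00389).

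**Figure D2:**
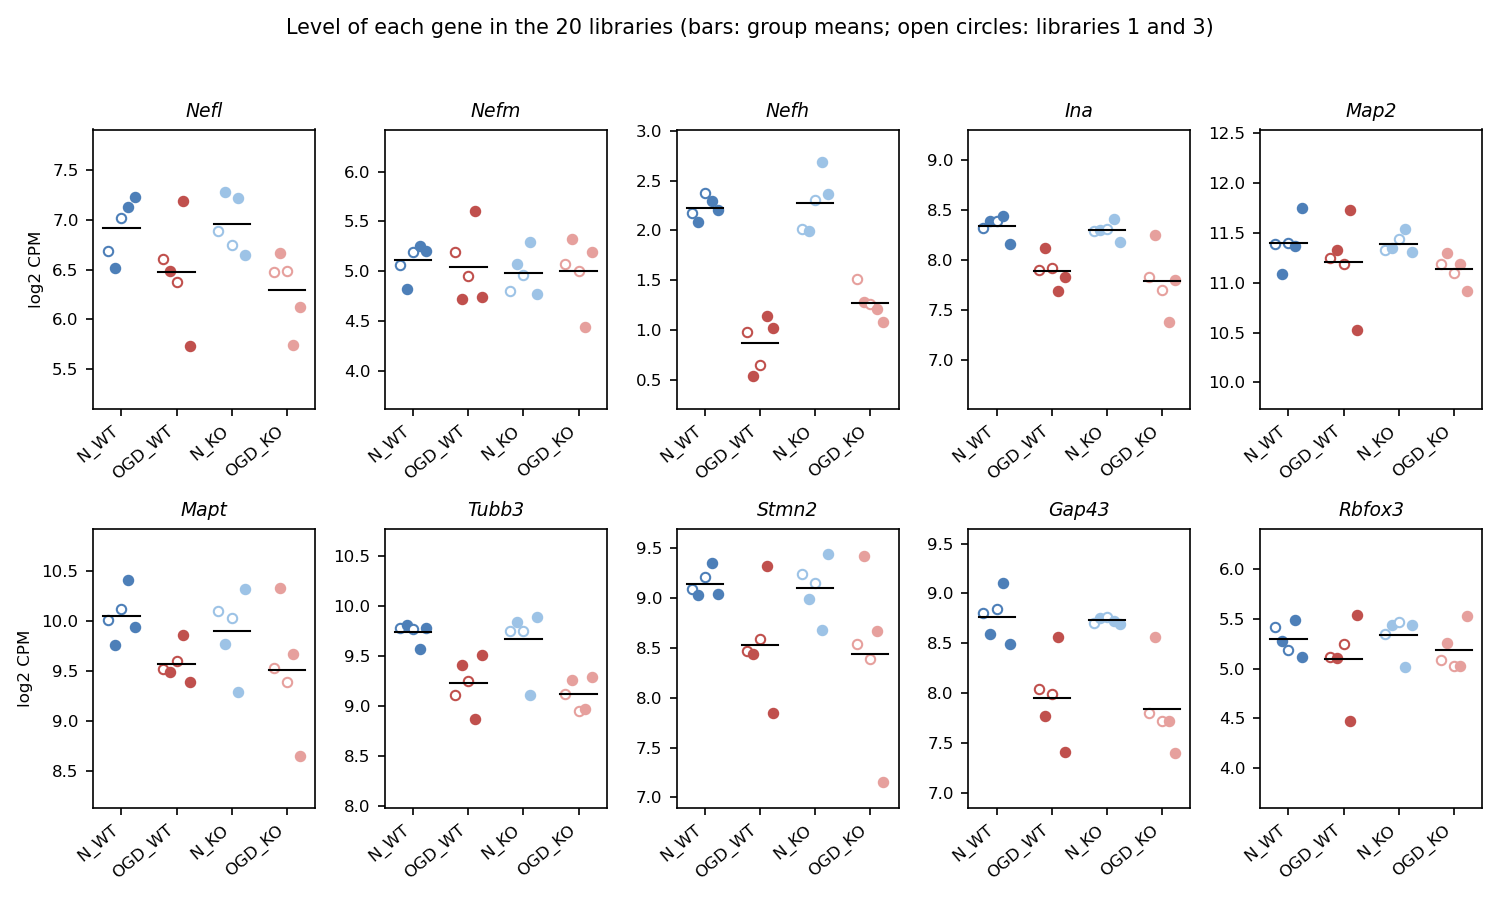
Each panel plots log2 CPM on a window of 2.8 log2 units for 1 gene, with 1 point per library, the group mean as a bar and libraries 1 and 3 as open circles. Nefh separates OGD from normoxia in both genotypes, whereas Nefm, Map2 and Rbfox3 overlap in WT.

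The light subunit Nefl, the core on which the other subunits assemble, fell in KO cultures. N_KO libraries 1 to 5 stood at 6.88, 7.28, 6.75, 7.22 and 6.64 log2 CPM and OGD_KO libraries at 6.48, 6.67, 6.48, 5.75 and 6.12. The groups overlapped by a single pair, OGD_KO library 2 and N_KO library 5. The change was -0.65 ± 0.18 (SE; limma adjusted p = 0.00778), and -0.87 with libraries 2, 4 and 5 only (adjusted p = 0.0447). In WT the values were 6.68, 6.51, 7.02, 7.13 and 7.23 in normoxia and 6.60, 6.49, 6.37, 7.19 and 5.73 under OGD. OGD_WT library 4 lay within the upper normoxia values and library 5 far below the rest. The WT difference of -0.44 ± 0.21 did not pass (adjusted p = 0.0904), and it was -0.62 without OGD_WT library 4 (adjusted p = 0.0151) and -0.25 without OGD_WT library 5 (0.243). Nefl thus passed the threshold in KO only, but the difference between the genotypes' responses was -0.25 (95% confidence interval -0.92 to 0.43, interaction adjusted p = 1.0).

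The medium subunit Nefm, which carries the side arms of the filament together with Nefh, was not called in either genotype. It stood at 5.07, 4.82, 5.19, 5.26 and 5.21 log2 CPM in N_WT and at 5.19, 4.72, 4.95, 5.60 and 4.74 in OGD_WT. In N_KO it stood at 4.80, 5.07, 4.96, 5.29 and 4.77 and in OGD_KO at 5.07, 5.32, 5.00, 4.44 and 5.20. OGD libraries lay on both sides of the normoxia values in both genotypes. The differences were -0.07 (95% confidence interval -0.42 to 0.28; limma adjusted p = 0.768) in WT and 0.03 (-0.32 to 0.38; adjusted p = 0.914) in KO, and the KO value was below 0 when libraries were centred on their medians (-0.01), with libraries 1 and 3 averaged (-0.01), with libraries 2, 4 and 5 only (-0.06) and on the scale of total reads (-0.26; adjusted p = 0.203). Leaving out single libraries gave -0.21 to 0.01 in WT and -0.05 to 0.17 in KO.

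Ina, a subunit that is expressed early in neuronal development, fell in both genotypes by a similar size. In N_WT it stood at 8.32, 8.39, 8.39, 8.44 and 8.16 log2 CPM, and in OGD_WT at 7.90, 8.12, 7.92, 7.68 and 7.83, without overlap. In N_KO it stood at 8.29, 8.30, 8.31, 8.41 and 8.18, and in OGD_KO at 7.83, 8.25, 7.70, 7.38 and 7.80. OGD_KO library 2 was the only OGD library above any normoxia library. Ina fell by 0.45 ± 0.14 (SE) in WT (limma adjusted p = 0.0123) and by 0.51 ± 0.16 in KO (adjusted p = 0.0175). Neither call held with libraries 1 and 3 averaged (adjusted p = 0.0806 in WT and 0.0876 in KO) or with libraries 2, 4 and 5 only (0.369 and 0.368), and the KO call was lost without OGD_KO library 3 (0.0516).

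Tubb3, the neuronal beta tubulin, fell in both genotypes. N_WT libraries stood at 9.79, 9.81, 9.77, 9.57 and 9.79 log2 CPM and OGD_WT libraries at 9.11, 9.41, 9.25, 8.87 and 9.51. All 5 OGD_WT libraries were below all N_WT libraries. In N_KO the values were 9.75, 9.84, 9.75, 9.11 and 9.89, with library 4 well below the others, and in OGD_KO 9.12, 9.26, 8.95, 8.96 and 9.29. Tubb3 fell by 0.51 ± 0.15 (SE) in WT (limma adjusted p = 0.00965) and by 0.55 ± 0.18 in KO (adjusted p = 0.0181). With libraries 1 and 3 averaged the differences were -0.49 (adjusted p = 0.0711) and -0.51 (0.108), and with libraries 2, 4 and 5 only -0.46 (0.38) and -0.44 (0.465). The KO call was also lost without OGD_KO library 3 (adjusted p = 0.059).

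Stmn2, a tubulin-binding protein needed for axon growth and repair, was the most variable of the 10 under OGD. In N_WT it stood at 9.10, 9.03, 9.21, 9.35 and 9.04 log2 CPM, and in OGD_WT at 8.47, 8.44, 8.59, 9.33 and 7.85. OGD_WT library 4 remained at the level of normoxia. In N_KO it stood at 9.25, 8.99, 9.15, 8.68 and 9.45 and in OGD_KO at 8.54, 9.42, 8.39, 8.67 and 7.15, so that OGD_KO library 2 was near the top of the normoxia range and library 5 more than 1 log2 unit below every other KO library. Stmn2 fell by 0.61 ± 0.20 (SE) in WT (limma adjusted p = 0.0156; 0.205 with libraries 2, 4 and 5 only). In KO the difference was -0.67 ± 0.29 (adjusted p = 0.07), and it was -0.91 without OGD_KO library 2 (adjusted p = 0.0126) and -0.34 without OGD_KO library 5 (0.167).

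Tau (Mapt) fell in WT, where the lowest, median and highest libraries were at 9.76, 10.01 and 10.42 log2 CPM in normoxia and at 9.39, 9.52 and 9.87 under OGD. The WT change was -0.48 ± 0.16 (SE; limma adjusted p = 0.0191), and it did not pass with libraries 1 and 3 averaged (0.0939), with libraries 2, 4 and 5 only (0.386) or without N_WT library 3 (0.0541). In KO, Mapt ranged from 9.29 to 10.32 in normoxia and from 8.65 to 10.34 under OGD, and its difference of -0.39 ± 0.26 was not called (adjusted p = 0.236). It was -0.17 without OGD_KO library 5 and -0.59 without OGD_KO library 2. The dendritic protein Map2 ranged from 11.09 to 11.75 in N_WT, 10.52 to 11.73 in OGD_WT, 11.30 to 11.54 in N_KO and 10.92 to 11.30 in OGD_KO. Its differences of -0.20 in WT (95% confidence interval -0.61 to 0.22; adjusted p = 0.442) and -0.25 in KO (-0.63 to 0.12; adjusted p = 0.271) were not called, although every OGD_KO library was below every N_KO library. The WT difference was -0.03 without OGD_WT library 5, -0.33 without OGD_WT library 4 and -0.11 without N_WT library 5.

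Gap43, a growth cone phosphoprotein, fell most after Nefh. It stood at 8.80, 8.59, 8.84, 9.10 and 8.50 log2 CPM in N_WT and at 8.04, 7.77, 7.99, 8.57 and 7.41 in OGD_WT. The overlap came from OGD_WT library 4, which was above N_WT library 5. In N_KO the values were 8.70, 8.75, 8.76, 8.73 and 8.69, the narrowest group of any of the 10 genes (SD 0.03), and in OGD_KO 7.80, 8.56, 7.72, 7.72 and 7.40, all below normoxia. Gap43 fell by 0.81 ± 0.18 (SE) in WT (limma adjusted p = 0.00124) and by 0.89 ± 0.18 in KO (adjusted p = 0.000839). In percent, Gap43 fell by 43.0% and by 46.0%. With libraries 1 and 3 averaged the adjusted p was 0.00618 and 0.00819, and with libraries 2, 4 and 5 only it was 0.0609 and 0.0877 at similar sizes of -0.82 and -0.83.

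Rbfox3, the splicing regulator whose protein is detected as the nuclear marker NeuN, was not called. N_WT libraries spanned 5.11 to 5.49 log2 CPM and OGD_WT libraries 4.47 to 5.54, while N_KO spanned 5.02 to 5.47 and OGD_KO 5.02 to 5.53. OGD_WT library 5 and OGD_KO library 5 were above every normoxia library of their genotype. The differences were -0.20 (95% confidence interval -0.55 to 0.15; adjusted p = 0.354) in WT and -0.16 (-0.46 to 0.15; adjusted p = 0.411) in KO. The WT difference was -0.05 without OGD_WT library 4 and -0.31 without OGD_WT library 5, and the KO difference was -0.24 without N_KO library 4 or without OGD_KO library 5.

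Ratios within a library ask whether 2 members changed unequally, and they need no scaling between libraries. None of the 16 tests of 8 ratios passed after adjustment, and the smallest adjusted p was 0.127. That value belonged to Nefm over Nefl in KO, which was -1.97 ± 0.17 log2 units (SD, n = 5) in normoxia and -1.29 ± 0.22 under OGD. All 5 OGD_KO libraries had a higher ratio than all 5 N_KO libraries, and the change was 0.68. The exact permutation p of 0.00794 is the smallest that 5 against 5 libraries allow. It treats the 5 libraries of a group as independent, which is in doubt for libraries 1 and 3. With 3 against 3 libraries the smallest possible p is 0.1, so such a test cannot pass. Over 7 alternative settings the change of this ratio in KO ran from 0.62 to 0.81. Its adjusted p ran from 0.0952 to 0.8. In WT the same ratio changed by 0.37, from -1.80 ± 0.16 to -1.44 ± 0.29 (exact permutation p = 0.0317, adjusted p = 0.169, n = 5). Nefh over Nefl changed by -0.93 in WT (exact permutation p = 0.0238, adjusted p = 0.169) and by -0.35 in KO (exact permutation p = 0.151, adjusted p = 0.417). The ratio of Rbfox3 to Map2 changed by -0.005 in WT and by 0.097 in KO, with exact permutation p of 0.992 and 0.595.

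Differences taken by culture number describe how evenly the members moved. The deviations of the normoxic and deprived library of a culture correlated at -0.743 to 0.058, so these differences carry the spread of both libraries. For each number, the highest correlation with a deprived library of another number was larger, at 0.102 to 0.241. The pairing by number therefore rests on the labels alone. The share of all genes lower in every culture is not given here. Nefh, Ina, Tubb3 and Gap43 were lower in the OGD library of all 5 WT cultures and all 5 KO cultures, Mapt and Stmn2 in all 5 WT cultures, and Nefl and Map2 in all 5 KO cultures. For Nefh the differences ran from -1.73 to -1.16 in WT and from -1.48 to -0.50 in KO. For Stmn2 they ran from -1.19 to -0.03 in WT and from -2.30 to 0.43 in KO, with KO culture 5 at the bottom and KO culture 2 at the top. WT culture 5 had the lowest differences of Nefl (-1.49) and Map2 (-1.23), whereas WT culture 4 had the highest of both (0.07 and 0.36) and the lowest of Rbfox3 (-1.02).

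**Figure D3:**
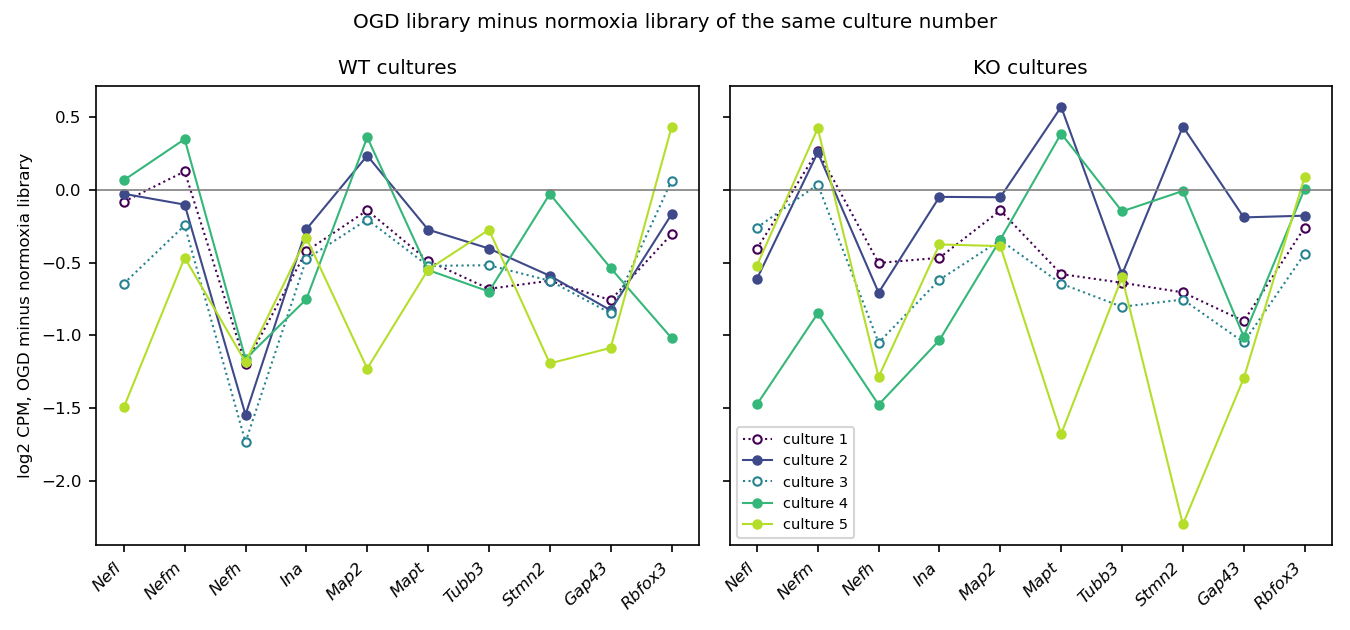
The vertical axis gives log2 CPM of the OGD library minus that of the normoxia library with the same culture number, for each gene and culture; dotted lines and open circles are cultures 1 and 3. Nefh lies below 0 in all 10 cultures, and KO culture 5 drops to -1.68 for Mapt and -2.30 for Stmn2.

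Loss of ciRS-7 was not accompanied by a called change of any of the 10 genes. In normoxia 0 of 10 passed in N_KO against N_WT, with differences from -0.11 (Mapt) to 0.08 (Rbfox3), and 0 of 10 had an unadjusted limma p under 0.05. Over all 14152 genes 0.0353% were called, and 256 had an unadjusted limma p under 0.05. Under OGD 0 of 10 passed in OGD_KO against OGD_WT, where 0.0282% of 14185 genes were called, and 1 had an unadjusted p under 0.05. That gene was Nefh, higher in OGD_KO by 0.42 (95% confidence interval 0.02 to 0.82; limma p = 0.0421, adjusted p = 1.0; exact permutation p = 0.0159, n = 5). The confidence intervals of the other 9 genes under OGD all included 0 and ran as wide as -0.76 to 0.60 for Stmn2. Of all 14185 genes under OGD, 253 had an unadjusted limma p under 0.05. That count and the 256 in normoxia are far fewer than a threshold of 0.05 gives by chance, so both tests were conservative. Few calls therefore do not show that the genotypes had equal levels.

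The size of the OGD response was compared between genotypes on a scale joint to all 20 libraries. No member passed, nor did any of the 13688 genes tested (0.0% called, 98 with an unadjusted limma p under 0.05). That is far fewer than a threshold of 0.05 gives by chance, so the test was conservative. The correlation within cultures that the fit used was -0.189, and without the culture block 155 genes had an unadjusted limma p under 0.05. The absence of calls therefore does not show that the responses were equal. The KO response minus the WT response was 0.38 for Nefh (95% confidence interval -0.18 to 0.94) and -0.25 for Nefl (-0.92 to 0.43). The other 8 differences were between -0.10 and 0.07, with standard errors of 0.22 to 0.42. The intervals reached as far as -0.94 and 0.78 for Stmn2.

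Levels can be compared between genes only per length, here as CPM per kilobase of merged exons on the joint scale. In N_WT the order was Tubb3 (454 ± 28.4, SD, n = 5), Gap43 (285 ± 48.3), Map2 (164 ± 27.5), Mapt (140 ± 25.0), Stmn2 (100 ± 10.1), Ina (98.7 ± 7.30), Nefl (35.7 ± 7.32), Rbfox3 (6.65 ± 0.746), Nefm (5.88 ± 0.691) and Nefh (1.10 ± 0.0927). The ranges of Map2 and Mapt, of Mapt and Stmn2, of Stmn2 and Ina, and of Rbfox3 and Nefm overlapped. The order was the same in N_KO. Under OGD, Ina was listed above Stmn2 in both genotypes (73.2 ± 8.31 against 69.7 ± 27.1 in OGD_WT), with overlapping ranges. Nefh stood at 0.401 ± 0.0793 in OGD_WT and 0.547 ± 0.0696 in OGD_KO. The merged exons of Map2 add up to 16.449 kb, while its longest transcript has 6258 bases, and the gap is smaller or absent for the other members, so the order holds for merged exons only. Per kilobase of the longest transcript, Map2 (430 ± 72.2) stood above Gap43 (306 ± 51.8) and below Tubb3 in N_WT, and above Tubb3 in OGD_WT (390 ± 110.0 against 324 ± 53.5). Stmn2 then stood above Ina in all 4 groups (114 ± 44.5 against 73.1 ± 8.30 in OGD_WT).

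Within groups, the members did not vary as a single block. Deviations from the group mean over the 20 libraries correlated most between Mapt and Stmn2 (r = 0.908), Stmn2 and Gap43 (0.836), Nefl and Nefm (0.833), Nefl and Map2 (0.776) and Tubb3 and Rbfox3 (0.718). Tubb3 and Rbfox3 ran against several of the others, with r of -0.770 for Rbfox3 and Map2, -0.618 for Rbfox3 and Nefl, and -0.600 for Tubb3 and Nefh. The libraries behind this are visible in the values above: OGD_WT library 4 was highest in its group for Nefl, Nefm, Map2, Stmn2 and Gap43 and lowest for Tubb3 and Rbfox3, and OGD_WT library 5 was lowest for Nefl, Map2, Stmn2 and Gap43 and highest for Tubb3 and Rbfox3. The heavy subunit Nefh had r of 0.471 with Nefm, 0.249 with Nefl and -0.113 with Ina. These values are descriptions, and since libraries 1 and 3 lie near their group means they rest mainly on libraries 2, 4 and 5.

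**Figure D4:**
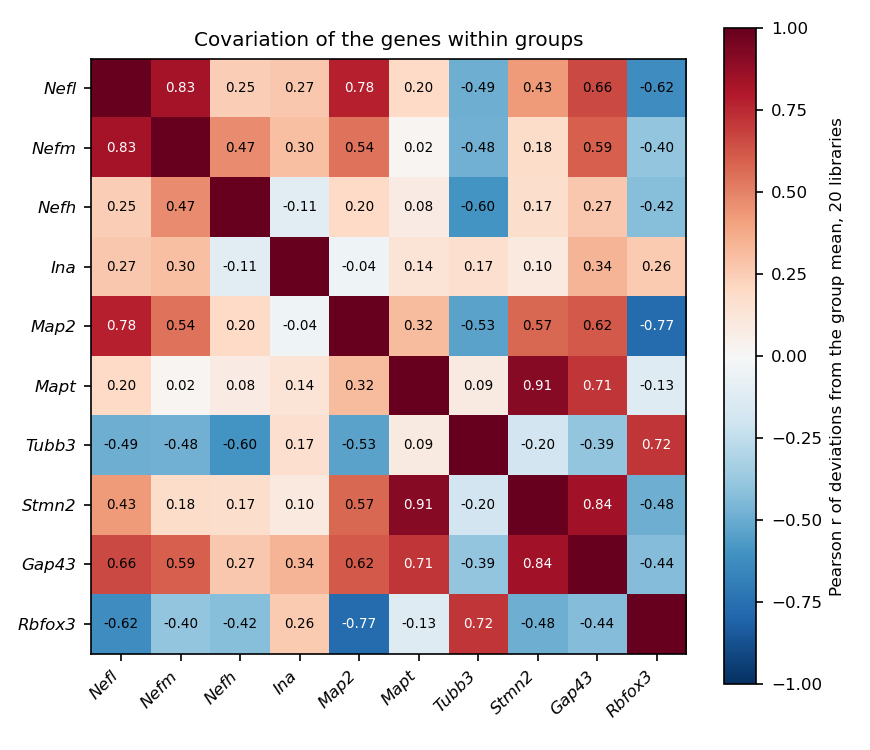
Each cell gives Pearson's r between 2 genes over 20 libraries after the group mean was taken off. Red marks genes that deviate together, such as Mapt and Stmn2 at 0.91, and blue marks opposite deviations, such as Map2 and Rbfox3 at -0.77.

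The same deviations were set beside measures of the libraries. Against the summed level of 13 other neuronal markers, r was 0.844 for Stmn2, 0.755 for Gap43, 0.744 for Map2, 0.629 for Nefl and 0.614 for Mapt, and -0.610 for Tubb3 and -0.822 for Rbfox3. It was 0.462 for Nefh, 0.396 for Nefm and -0.136 for Ina. Against summed astrocyte markers, r ran from -0.756 (Nefm) to 0.512 (Mapt). Against summed proliferation markers, it ran from -0.346 (Rbfox3) to 0.392 (Map2). Against the share of mt-Rnr2, r was between -0.438 (Mapt) and 0.456 (Nefh). Against the recovered reads, it was between -0.192 and 0.305. Over 9180 genes, a library's deviations correlated with the GC content of the longest transcript at between -0.195 and 0.245. Rbfox3 (58.6% GC) and Tubb3 (57.9%) followed that value at r of 0.627 and 0.469, while Stmn2 (41.3%) ran against it at -0.496. Other members of high GC content did not follow it alike. Their r was -0.407 for Nefh (58.4%), -0.002 for Nefm (57.8%) and 0.171 for Ina (55.5%). Against a library's correlation with transcript length, taken in the same way, r ran from -0.421 (Ina) to 0.466 (Mapt). The OGD changes themselves correlated with GC content across the 9180 genes at -0.015 in WT and -0.004 in KO.

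The genes whose pattern over all 20 libraries was most like each member were searched among 9374 genes with a mean of at least 3 log2 CPM. Nefh was most like Ttpal (r = 0.972), Lrrc55 (0.960) and Gm32444 (0.958). Stmn2 was most like Rap2a (0.976), Kifap3 (0.969) and Kif5c (0.959), and Gap43 was most like Calm2 (0.975), Pitpna (0.970) and Nap1l2 (0.965). Nefl was most like Vamp2 (0.946), Slit2 (0.940) and Rorb (0.923), and Nefm was most like Dnajc2 (0.877), Ank1 (0.870) and Mrps15 (0.864). Ina was most like Grb2 (0.958), Agfg1 (0.932) and Gpr180 (0.923), and Tubb3 was most like Fbxl18 (0.953), Trim67 (0.953) and Ptms (0.943). Map2 was most like Afap1 (0.948), Kcna1 (0.934) and Atxn1 (0.920). Mapt was most like Synj2bp (0.934), Aplp1 (0.932) and Adap1 (0.924), and Rbfox3 was most like Nynrin (0.914), Pdzd2 (0.913) and Eef2k (0.884). These values are the highest among all genes searched and describe these libraries only.

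Other proteins of the same structures are described by their counts, beside the 22.8% of all genes lower in WT and 19.9% in KO. Of the other tubulins, 6 of 11 measured fell and 1 rose in both genotypes, with medians of -0.47 in WT and in KO. The alpha tubulin Tuba4a and Tubb4a, a beta tubulin of mature brain, fell by 1.51 and 1.37 in WT (limma adjusted p = 1.31e-06 and 3.48e-06) and by 1.31 and 1.35 in KO, and the beta tubulin Tubb6 rose by 1.94 in WT (adjusted p = 1.04e-06) and 2.06 in KO. Of 36 other microtubule-binding proteins, 14 fell and 2 rose in WT, and 13 fell and 2 rose in KO, with medians of -0.34 and -0.37. Among them Tppp, a promoter of tubulin polymerization, fell by 1.36 and 1.25 and Map1a by 1.19 and 1.15, while Katna1, the severing subunit of katanin, rose by 1.01 and 1.00 and the doublecortin-like kinase Dclk2 by 0.92 and 0.91.

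Intermediate filaments other than the neurofilaments did not share a direction. Of 8 measured, 2 rose and 2 fell in each genotype, counts near the shares of all genes, with medians of 0.26 in WT and 0.11 in KO. Vimentin (Vim), the filament of astrocytes and progenitors, rose by 1.25 in WT (limma adjusted p = 0.000402) and 1.28 in KO (adjusted p = 0.000207), and the lamin Lmnb2 rose by 0.37 (adjusted p = 0.0478) and 0.64 (0.00249). Synemin (Synm) fell by 0.84 (adjusted p = 0.000487) and 0.75 (0.000482). The astrocyte filament Gfap fell by 0.47 in WT (adjusted p = 0.0434), and its difference of -0.34 in KO was not called (0.123). Besides Synm, the gene called lower in KO was peripherin (Prph), named after its values were seen. Prph fell by 0.56 in KO (limma adjusted p = 0.0279) at a mean of only 0.45 log2 CPM. Its difference of -0.44 in WT was not called (0.157). The WT calls of Lmnb2 and Gfap were fragile: they held in 6 and 10 of 21 settings.

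**Figure D5:**
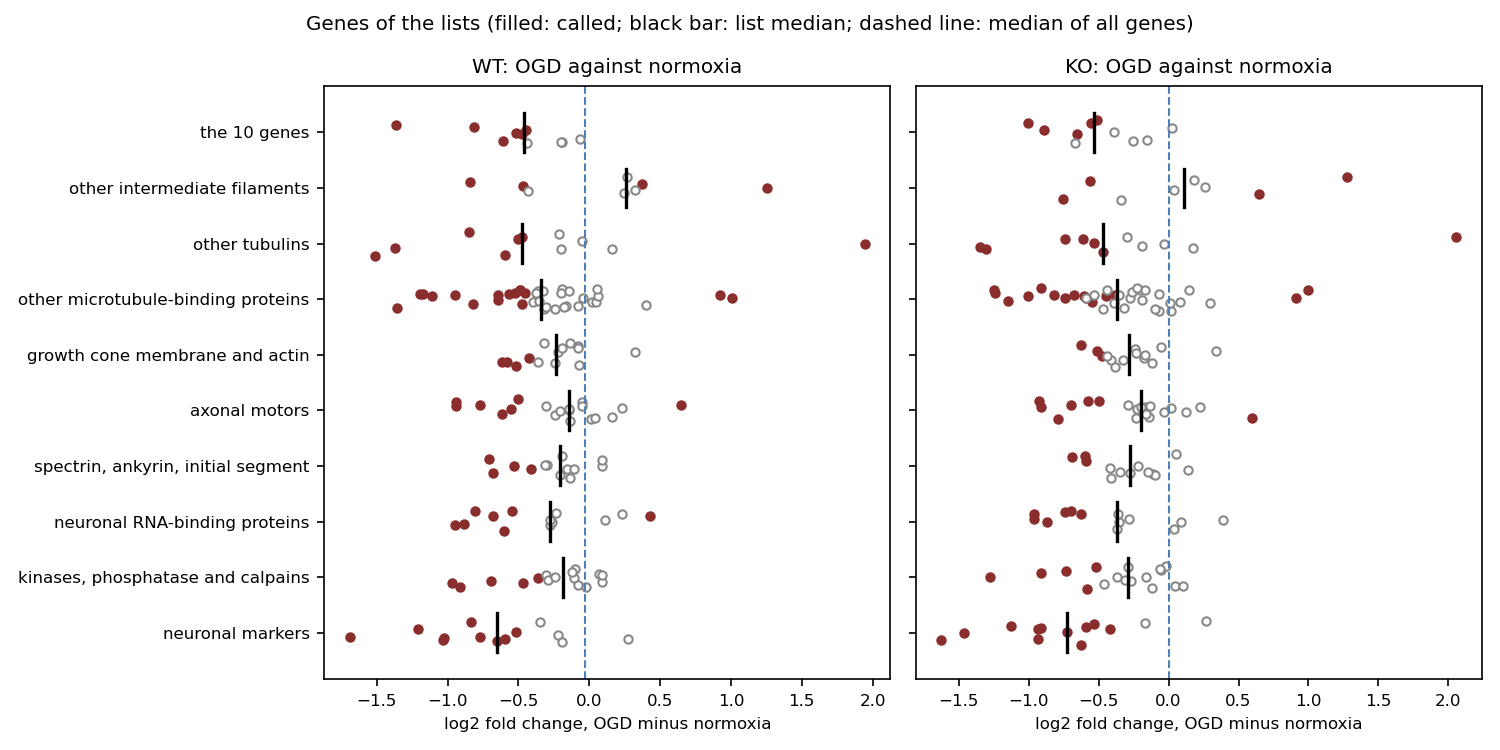
Points are log2 fold changes of OGD against normoxia for the genes of each list, filled where called at an adjusted p under 0.05, with the list median as a black bar and the median of all genes as a dashed line. The medians of the 10 genes (-0.46 and -0.53), the other tubulins and the neuronal markers lie left of the dashed line, and that of the other intermediate filaments lies right of it.

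Among 19 axonal motors, 6 fell and 1 rose in both genotypes, beside 22.8% of all genes called lower in WT and 19.9% in KO. No list in this paragraph was tested as a set. With so few genes per list, none of the counts in this paragraph is read as differing from those shares. Dync1i1, a dynein intermediate chain, fell by 0.94 in WT and 0.91 in KO, Kif3b by 0.94 and 0.93, and Kif21a rose by 0.64 and 0.60. Of 13 spectrins, ankyrins and proteins of the axon initial segment, 4 fell in WT and 3 in KO, with Epb41l1 lower by 0.68 and 0.69. Of 14 growth cone and actin proteins, 4 fell in WT and 3 in KO. Crtac1 fell by 0.58 and 0.62 (its KO call held in 13 of 21 settings), and Cntn2, an axonal adhesion molecule, fell by 0.61 in WT (limma adjusted p = 0.00261) with -0.32 in KO (adjusted p = 0.144). Of a list that joins kinases of tau and neurofilaments with phosphatases and calpains, 5 of 16 measured fell in WT and 5 of 17 in KO. Cdk5r2, an activator of the kinase Cdk5, fell by 0.97 and 0.91 and the calpain Capn5 by 0.91 and 0.73.

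Neuronal RNA-binding proteins give the family context of Rbfox3. Of 13, 6 fell in each genotype, and 1 rose in WT, beside 22.8% of all genes called lower in WT and 19.9% in KO. Rbfox1, a paralog of Rbfox3, fell by 0.89 in WT (limma adjusted p = 6.54e-05) and 0.97 in KO (adjusted p = 0.00256), and Elavl2 fell by 0.95 and 0.96. The paralog Rbfox2, named after its values were seen, had differences of -0.27 (adjusted p = 0.125) and -0.36 (0.0932), which were not called. Ptbp2, a splicing repressor of immature neurons, rose by 0.43 in WT (adjusted p = 0.0198), a call that held in 15 of 21 settings, with 0.39 in KO (0.0524).

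Markers of the cell types in the cultures moved with these results. Of 13 other neuronal markers 9 fell in WT and 11 in KO, beside 22.8% and 19.9% of all genes called lower. The medians of these markers were -0.65 and -0.72. Their summed level was 1870 to 2170 CPM in N_WT and 1090 to 2030 in OGD_WT, and 1990 to 2240 in N_KO and 874 to 1450 in OGD_KO. Astrocyte markers were present in every group and rose for 6 of 11 measured in WT, with 1 lower (Gfap), and for 5 of 11 in KO, beside 21.6% and 21.0% of all genes called higher. Their summed level was 1200 to 1520 CPM in N_WT and 1950 to 2390 in OGD_WT, and 976 to 1670 in N_KO and 1590 to 2470 in OGD_KO. All 12 proliferation markers rose in both genotypes, by medians of 0.94 and 1.05, and 5 of 10 neural progenitor markers rose in both, with 1 lower in WT. Of the microglia markers, 11 of 12 (Aif1, Cx3cr1 and Csf1r among them) were not in the tables. Of the oligodendrocyte lineage markers, 8 of 12 were measured in WT, with 1 higher and 2 lower, and 9 of 12 in KO, with 4 higher and none lower, while Mog and Mag were not in the tables. The summed level of the 8 in all tables was 285 to 352 CPM in N_WT and 326 to 481 in OGD_WT, and 212 to 399 in N_KO and 281 to 403 in OGD_KO. Of 12 endothelial and mural markers, 4 were measured in WT (2 higher, 1 lower) and 5 in KO (2 higher), while Pecam1, Cldn5 and Cdh5 were not in the tables. The 2 endothelial and mural markers in all tables summed to 2.55 to 9.31 CPM in every library. The part of these markers, of the mt-Rnr2 share and of the signs of RNA quality in the changes of the 10 genes was not tested.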

How the data were processed

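RNA in 20 libraries from 10 cultures was sequenced after TRIzol extraction, DNase digestion and a stranded total RNA library kit, per the labels' protocols. The authors deposited 4 tables of log2 CPM, 1 per pair of groups, each scaled on its own. The submitters' processing notes name the build mm10, and the aligner, counter, filter and scaling are not given in the sources used here. In each group the lowest and highest value of a gene had been drawn inwards, to 0.6 of the extreme and 0.4 of its neighbour. No label states this step; it was inferred from the values. Undone, at least 99.91% of values up to 500 reads were whole reads within 0.05, against 45.5% to 92.8% as deposited, and all values here have it undone.

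Each table was fitted whole with limma 3.58.1 in R 4.3.3 (lmFit, eBayes with trend, Benjamini-Hochberg over all genes, called at an adjusted p under 0.05). The interaction used 13688 genes on a joint scale (prior count 2) with culture as a block. Single genes and ratios were compared with 2-sided exact permutation tests of 5 against 5 libraries, whose smallest p is 0.00794. These tests treat the 5 libraries of a group as independent, which is in doubt for libraries 1 and 3. Within a genotype, normoxic and deprived libraries of a number share a culture label. Their deviations correlated at -0.743 to 0.058.

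The members and lists were chosen with earlier results of these data known. The genes named from each other list are the called ones with the largest change in WT, up to 2 in each direction, with a mean of at least 1 log2 CPM. Rbfox2 and Prph were added afterwards. A further gene that this rule names is not reported here. Alternatives covered the deposited values, filtering, scaling, offset, trend, batch, culture block and each left-out library. Scaling to total reads, libraries 2, 4 and 5 only, and libraries 1 and 3 averaged were chosen after seeing the data.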

Additional observations from a re-analysis of the deposited data

Results flagged for a closer look

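Over the 10 genes and 4 groups, 3 of 40 sets of 5 libraries had a library far from the others by Dixon's criterion at a critical value of 0.71. For independent normal values chance gives about 1 in 20, or 2.0 sets. Libraries 1 and 3 lie near their group means and the genes covary, so that expectation is only rough here. All 3 flagged values were library 4 of a normoxia group. Tubb3 stood at 9.57 log2 CPM in N_WT library 4, against 9.77 to 9.81 in the other 4. It stood at 9.11 in N_KO library 4, against 9.75 to 9.89. Rbfox3 stood at 5.02 in N_KO library 4, against 5.35 to 5.47.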

How the results depend on the processing

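The 6 WT and 5 KO members called under OGD became 7 and 6 on the deposited values, 9 and 8 on the scale of total reads, 3 and 2 with only batches 3.1, 3.2 and 3.3, 3 and 3 with libraries 1 and 3 averaged, and 1 and 2 with libraries 2, 4 and 5 only. In KO the last set of libraries is also that of batch 3. Leaving out each library in turn gave 5 to 7 in WT and 3 to 6 in KO, with 3 without OGD_KO library 3 and 6 without OGD_KO library 2. With the replicate block of culture the same 6 and 5 members were called, and the calls over all genes were 5681 and 4829 against 6313 and 5884. On the deposited values 8280 and 8024 genes were called, and with libraries 2, 4 and 5 only 2411 and 2341. Nefh was called in 21 of 21 settings in both genotypes, Nefl in KO in 21 of 21, and Nefm in 0 of 21. No member was called in the genotype comparisons or the interaction under any alternative run, the fit with no replicate block included. Of 420 values of single members under OGD, 377 kept their direction and side of the threshold, 22 lost and 10 gained the call, and 11 that were not called moved. The causes were not tested. Depth was lowest for Nefh, with as few as 10 reads in a library.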
